A study of Mus musculus with 20 samples.

Results

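Cytokines, chemokines and their receptors were examined as a gene family in kidneys of mice injected with immune complexes. Its members were the genes whose symbol starts with Ccl, Ccr, Cxcl, Cxcr, Cx3c, Tnfsf or Tnfrsf, or with Il followed by a digit. Of 15780 genes listed, 104 were members, and 73 of these reached 10 counts in 5 or more of the 20 libraries and were tested. The members fell into 21 chemokines (12 tested), 13 chemokine receptors (7 tested), 13 interleukins and IL-18 binding protein (11 tested), 31 interleukin receptors (24 tested), 9 TNF superfamily ligands (7 tested) and 17 TNF receptor superfamily genes (12 tested).

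Kidney mRNA was sequenced from female NCr nude mice, 7 weeks old at purchase, with 5 mice in each of 4 groups and 1 library per mouse. EIC mice (65 to 69) received 6 tail-vein injections of engineered immune complexes, made from human galactose-deficient IgA1 and a human recombinant IgG against it, and vehicle by gavage on 11 days. EIC + S60 mice (71 to 75) and EIC + S120 mice (77 to 81) received the same injections and sparsentan by gavage at 60 or 120 mg/kg, and Control mice (651 to 655) received PBS and vehicle. Kidneys were taken on day 12. All 4 groups share the nude genotype, so these mice lack a normal thymus and most T cells, and the complexes were made of human proteins. Sparsentan is an antagonist of both the endothelin A and the angiotensin II type 1 receptor.

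Chemokines are secreted or membrane-bound proteins that direct the migration of leukocytes through G protein-coupled receptors. Interleukins act through receptor chains that are often shared between several ligands and that signal through JAK kinases and STAT proteins, or, for the IL-1 family, through MyD88 and NF-kappaB. Ligands of the TNF superfamily bind receptors that recruit TRAF or death-domain adaptors. In kidney, tubular, mesangial and endothelial cells as well as resident macrophages can express these genes, and immune complexes are known to engage them in glomerulonephritis.

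Total counts of EIC mice ranged between 17403376 and 19635495, those of EIC + S60 mice between 15220943 and 27948916, those of EIC + S120 mice between 15915650 and 18180183 and those of Control mice between 12662345 and 38651781, where mice 651 and 652 were the deepest of all 20 libraries. Renal tubule markers were abundant in each library, with sums between 10557 and 14194 CPM (counts scaled to library size). Library sizes were scaled by TMM, and an LFC is the log2 fold change of the group named first over the group named second. The SE given with an LFC comes from a separate fit (limma-trend on log2 CPM) and not from the test. For genes with few reads it can make an LFC look more precise than the test found it. RNA of whole kidney was measured, so fewer cells of a type and less RNA per cell cannot be told apart.

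Of the 73 members tested, 3 passed the test (adjusted p under 0.05) in at least 1 of the 6 pairwise comparisons. Il22ra1, the ligand-specific chain of the IL-22 receptor, was lower in EIC and in EIC + S120 than in Control, Cxcl12, the ligand of Cxcr4, was higher in EIC + S120 than in Control, and Il2rg, the common gamma chain of the receptors for IL-2, IL-4, IL-7, IL-9, IL-15 and IL-21, was higher in EIC + S60 than in Control. Across the 4 groups tested together, Cxcl12 (adjusted p = 0.0101) and Il22ra1 (adjusted p = 0.0178) passed, 2.74% of the 73 members, against 3.55% of all 13990 genes tested. Il2rg had an adjusted p of 0.0694 in that test.

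The promoter windows of the pair that passed the test across the groups are shown here because the report turns on these genes. They are RefSeq windows on GRCm38.p6, covering 250 bases before and 50 bases after the start of the gene. Capitals mark the GC box GGGCGG on either strand, the motif bound by Sp1-type factors. The Il22ra1 window is chr4:135727909-135728208 on the plus strand, and the Cxcl12 window is chr6:117168285-117168584 on the plus strand.
Il22ra1: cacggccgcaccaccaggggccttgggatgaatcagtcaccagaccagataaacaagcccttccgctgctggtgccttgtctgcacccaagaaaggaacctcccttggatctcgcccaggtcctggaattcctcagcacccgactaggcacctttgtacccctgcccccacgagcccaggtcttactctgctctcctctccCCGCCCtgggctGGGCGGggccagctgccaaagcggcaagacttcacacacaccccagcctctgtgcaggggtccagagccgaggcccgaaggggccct
Cxcl12: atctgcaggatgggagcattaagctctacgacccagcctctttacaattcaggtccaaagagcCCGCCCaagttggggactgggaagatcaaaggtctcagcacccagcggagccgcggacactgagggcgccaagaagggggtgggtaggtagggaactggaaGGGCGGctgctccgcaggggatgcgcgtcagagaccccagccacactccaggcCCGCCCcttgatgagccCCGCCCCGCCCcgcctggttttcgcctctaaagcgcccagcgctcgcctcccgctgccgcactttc
The GC box was present at 2 positions in the Il22ra1 window and at 5 in the Cxcl12 window, where the last pair of matches overlap by a single base. It was found in 35.7% of all 32851 RefSeq windows of this length. Windows were matched by symbol for 55 of the 73 tested members, and 31 of these (56.4%) held a GC box in any of their windows. Shares of members are thus per gene and those of all windows per window. A gene with several windows has more chances to match, so the shares are not directly comparable. The E-box CACGTG was in 3 of the 55 (5.45%) against 7.15% of all windows, and the GAS motif TTCNNNGAA, to which STAT dimers bind, was in 7 of the 55 (12.7%) against 8.3%. Neither of these motifs was matched in the windows of Il22ra1, Cxcl12 and Il2rg.

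Il22ra1 (chromosome 4, 135728172 to 135752140, plus strand, GRCm38) encodes the chain that pairs with Il10rb to bind IL-22 and is known mainly from epithelial cells. It had 1.30, 1.45, 2.16, 0.877 and 1.63 CPM in EIC mice, 1.57, 1.10, 1.51, 1.75 and 1.73 CPM in EIC + S60 mice, and 1.30, 1.07, 1.71, 1.32 and 1.25 CPM in EIC + S120 mice, against 2.43, 2.26, 2.61, 3.06 and 2.86 CPM in Control mice. Each of the 15 injected mice lay below each of the 5 Control mice, and the 3 injected groups overlapped each other. The LFC was -0.82 ± 0.20 in EIC vs. Control (adjusted p = 0.0332), -0.98 ± 0.20 in EIC + S120 vs. Control (adjusted p = 0.00685) and -0.77 ± 0.20 in EIC + S60 vs. Control, which missed the threshold (adjusted p = 0.0694). DESeq2 called that comparison (adjusted p = 0.0257), as did the fits without EIC 67 or 68. These 3 comparisons share the Control mice. The call in EIC vs. Control lay close to the threshold: it was lost in 7 of 20 fits that left out 1 library (Control 651, 654 or 655, or EIC 65, 66, 68 or 69), with adjusted p between 0.0525 and 0.0886 and an LFC between -0.67 and -0.86 in those fits. It was also lost with only the libraries compared and without both deep Control libraries (adjusted p = 0.114 and 0.0737). The call in EIC + S120 vs. Control held in each of the 28 alternatives, with adjusted p between 0.000883 and 0.0242. Between the sparsentan groups and EIC the LFC was 0.05 ± 0.20 at 60 mg/kg (adjusted p = 0.986) and -0.16 ± 0.20 at 120 mg/kg (adjusted p = 0.885).

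Cxcl12 (chromosome 6, 117168535 to 117181367, plus strand) was among the most abundant members. It had 453, 368, 386, 474 and 442 CPM in EIC mice, 486, 424, 409.6, 393 and 442 CPM in EIC + S60 mice, and 559, 495, 504, 463 and 479 CPM in EIC + S120 mice, against 422, 327, 313, 349 and 345 CPM in Control mice. The EIC + S120 mice all lay above the Control mice, while EIC and EIC + S60 overlapped with Control only through mouse 651. The LFC was 0.51 ± 0.09 in EIC + S120 vs. Control (adjusted p = 0.00103), and this call held in each of the 28 alternatives. In EIC vs. Control it was 0.27 ± 0.09 (adjusted p = 0.0969), and in EIC + S60 vs. Control 0.29 ± 0.09 (adjusted p = 0.110). Control 651, a deep library, had the highest Control value. Without it both comparisons passed, with LFCs of 0.36 (adjusted p = 0.0308) and 0.37 (adjusted p = 0.0290). In Control 651 the summed podocyte markers stood at 772.0 CPM, the highest of all 20 libraries. Its summed tubular injury markers stood at 60.81 CPM, against at most 18.26 CPM in the other Control mice. EIC + S60 72 had a higher tubular injury sum, 87.16 CPM. The part of that Control library's tissue in the Cxcl12 result was not tested. Without EIC 66 the LFC in EIC vs. Control was 0.34 (adjusted p = 0.0408). Cxcl12 was 0.24 ± 0.09 higher on the log2 scale in EIC + S120 than in EIC (unadjusted p = 0.0135, adjusted p = 0.451) and 0.22 ± 0.09 higher in EIC + S120 than in EIC + S60 (unadjusted p = 0.0226, adjusted p = 0.511), so the difference between doses did not pass the test. The 6 markers of mesangial and mural cells summed to between 244 and 425 CPM in EIC mice, 552 and 1008 CPM in EIC + S60 mice and 606 and 1002 CPM in EIC + S120 mice, against 224 and 395 CPM in Control mice. Renin (Ren1) alone carried the higher sums, averaging 191 CPM in EIC mice, 671 CPM in EIC + S60 mice and 698 CPM in EIC + S120 mice, against 137 CPM in Control mice, while Pdgfrb, for example, averaged 29.7, 36.3 and 30.6 CPM in those 3 groups, against 34.6 CPM in Control mice. Their part in the Cxcl12 values was not tested. Its receptor gene Cxcr4 averaged 5.02 ± 0.512 CPM in EIC mice, 5.51 ± 1.26 CPM in EIC + S60 mice, 4.27 ± 0.766 CPM in EIC + S120 mice and 4.49 ± 1.08 CPM in Control mice (SD, n = 5 each), with an LFC of 0.16 ± 0.18 in EIC vs. Control (adjusted p = 0.697).

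Il2rg (chromosome X, 101264378 to 101268255, minus strand) shares exon sequence with the gene model Gm20489 on the same strand, so its counts are uncertain to that extent. It had 1.69, 1.86, 3.30, 2.28 and 1.998 CPM in EIC mice, 2.36, 2.66, 3.66, 3.17 and 1.84 CPM in EIC + S60 mice, and 1.66, 1.96, 1.89, 1.70 and 1.67 CPM in EIC + S120 mice, against 1.70, 1.53, 1.74, 1.22 and 1.47 CPM in Control mice. All EIC + S60 mice lay above all Control mice, and the other injected groups overlapped with Control. The LFC was 0.82 ± 0.19 in EIC + S60 vs. Control (adjusted p = 0.0469) and 0.52 ± 0.19 in EIC vs. Control (adjusted p = 0.184; 0.34 without EIC 67). The call was kept in 5 of 20 fits that left out 1 library (EIC 65, 66 or 67, EIC + S60 75 or EIC + S120 77) and lost in the other 15, with adjusted p between 0.0522 and 0.151. The libraries that decided it thus included mice of groups outside the comparison. In EIC + S120 vs. EIC + S60 the LFC was -0.61 ± 0.19 (unadjusted p = 0.00649, adjusted p = 0.362).

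**Figure D1:**
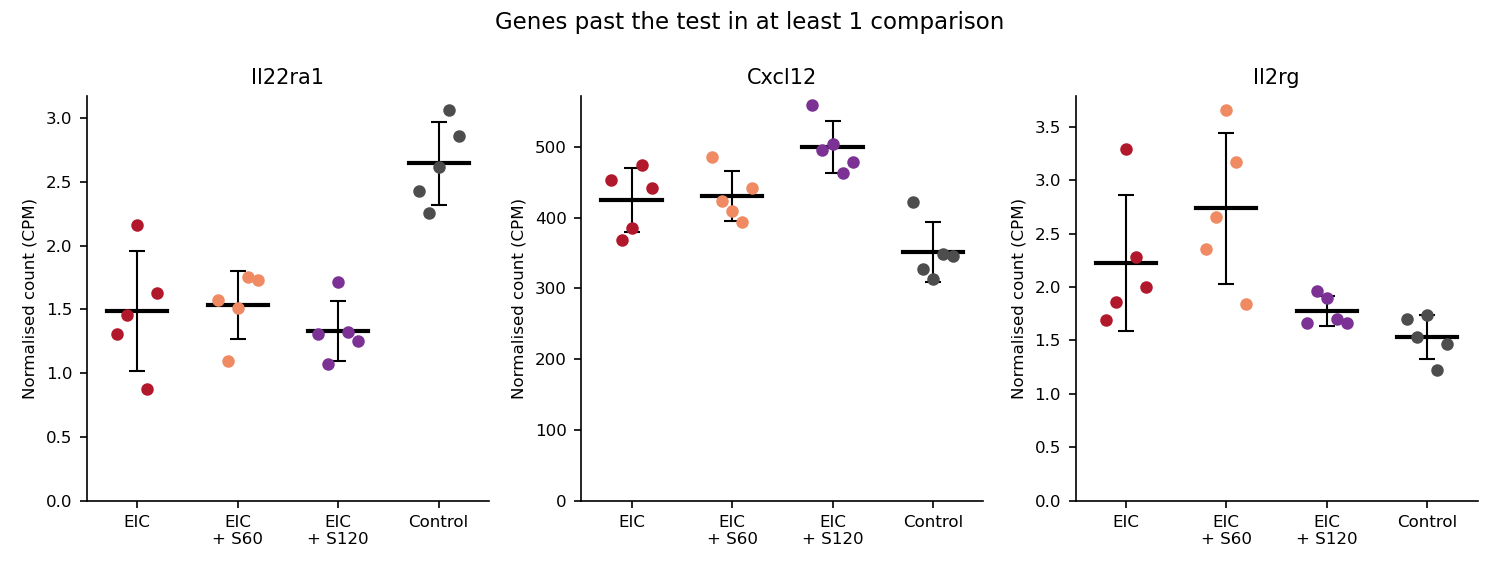
Normalised counts (CPM, vertical axes from 0) of Il22ra1, Cxcl12 and Il2rg in each mouse (points) of EIC, EIC + S60, EIC + S120 and Control, with the mean (line) and SD (whiskers, n = 5). All 15 injected mice sit below the Control mice in the Il22ra1 panel, and all EIC + S120 mice sit above the Control mice in the Cxcl12 panel.

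Levels were compared between genes per kb of exon (CPM per kb, mean over the 20 libraries, exon lengths from GENCODE vM21). The highest member was Tnfrsf21, which encodes death receptor 6, at 75.0 CPM per kb (range over libraries 50.7 to 103), followed by Cxcl12 at 52.2 (38.3 to 68.4) and Tnfrsf1a, the main receptor for soluble TNF, at 25.0 (21.1 to 28.9). Cxcl16, a membrane-bound chemokine and ligand of Cxcr6, was at 19.5 CPM per kb, Il13ra1, a receptor chain for IL-13 and IL-4, at 17.3, Il10rb, the shared chain of the IL-10 and IL-22 receptors, at 16.9, and Il6st, the signalling chain gp130 of IL-6-type receptors, at 16.3. These 4 genes had overlapping ranges over the libraries, as did Tnfrsf21 and Cxcl12, and Tnfrsf1a and Cxcl16, while Cxcl12 and Tnfrsf1a did not overlap. The top of the order thus held both receptor chains and chemokines, and which cells made these transcripts was not tested. Of receptors carried by leukocytes, Cxcr4 stood at rank 20, Cx3cr1 at rank 35, Il2rg at rank 37 and Il2rb (0.106 CPM per kb) at rank 71 of 73. The last rank was that of Il20rb.

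**Figure D2:**
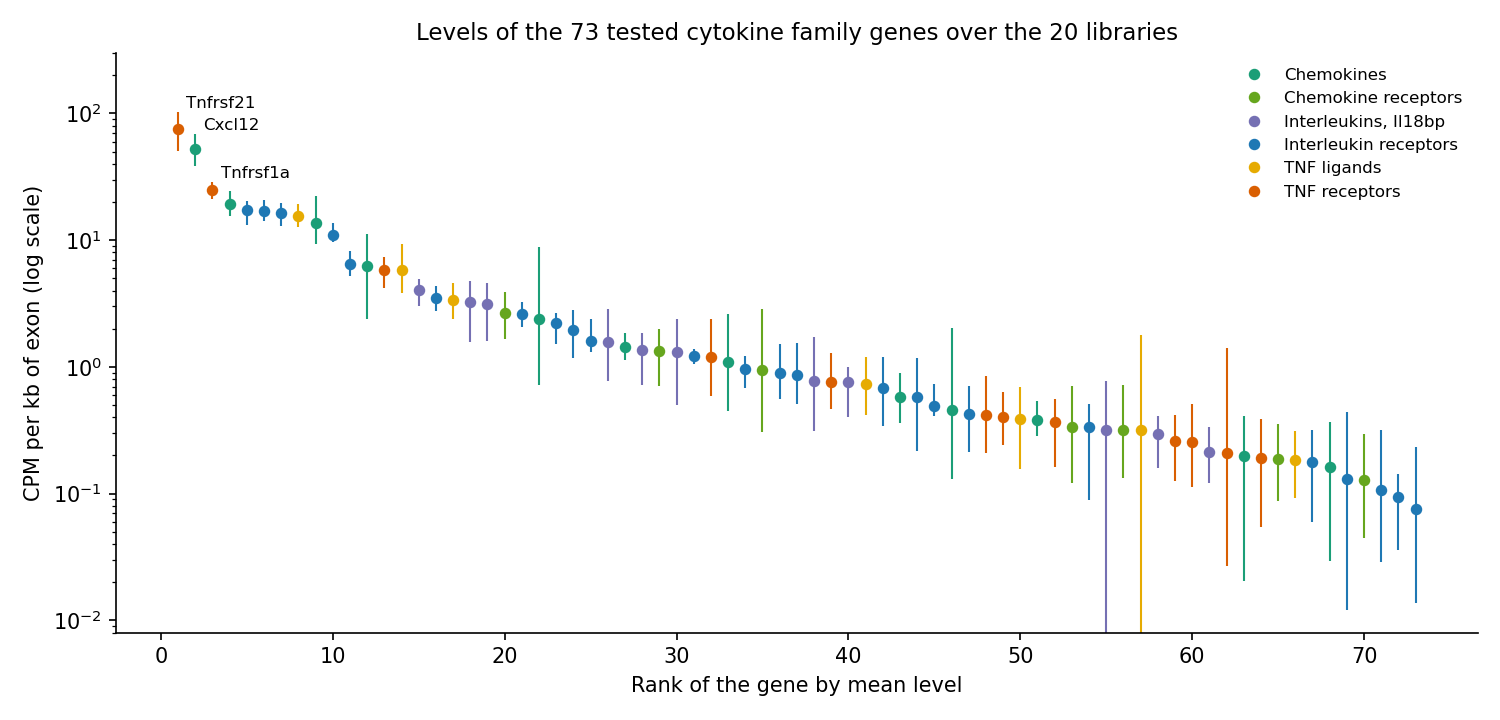
Mean level per kb of exon (points, log axis) of the 73 tested genes in order of rank, with the range over the 20 libraries (vertical lines) and colours for the 6 classes. Tnfrsf21 and Cxcl12 lead at 75.0 and 52.2 CPM per kb, and the lines that leave the axis at the bottom belong to Il1b and Tnfsf9, each at 0 counts in at least 1 library.

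EIC vs. Control sets injected complexes against PBS, so their effect cannot be told apart from that of injected human protein as such. In this comparison 1 of 73 members passed the test (1.37%, Il22ra1), against 2.97% of all genes tested. An unadjusted p under 0.05 was reached by 12 members (16.4%), against 16.8% of all genes. Of these, 10 were higher in EIC (13.7%, against 7.66% of all genes) and 2 were lower (2.74%, against 9.11%). The LFC was above 0 in 48 of 73 members (65.8%), against 47.6% of all genes, and its median was 0.08, against -0.01 over all genes. The groups did not overlap for 1 member that was higher in EIC, Il10ra (1.37%, against 1.98% of all genes), and for 2 that were lower, Il1r1 and Il22ra1 (2.74%, against 2.03%).

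By class, the median LFC in EIC vs. Control was 0.25 for the 7 chemokine receptors, 0.18 for the 12 chemokines, 0.13 for the 11 interleukins, 0.10 for the 12 TNF receptor superfamily genes, 0.07 for the 7 TNF ligands and -0.00 for the 24 interleukin receptors. The widest spread was among the interleukin receptors and the TNF receptors, whose LFCs ran between -1.04 and 1.20 and between -1.43 and 0.34. The lowest value, -1.43, was that of Tnfrsf19, a gene known from epithelial and progenitor cells that stands outside the rule for named genes and is given because of 1 library. Control 653 alone had 6.66 CPM of Tnfrsf19, and the summed adipocyte markers Adipoq, Plin1 and Cidec stood at 60.5 CPM in the same library and at no more than 4.27 CPM in the others. The part of that library's tissue in the result was not tested.

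**Figure D3:**
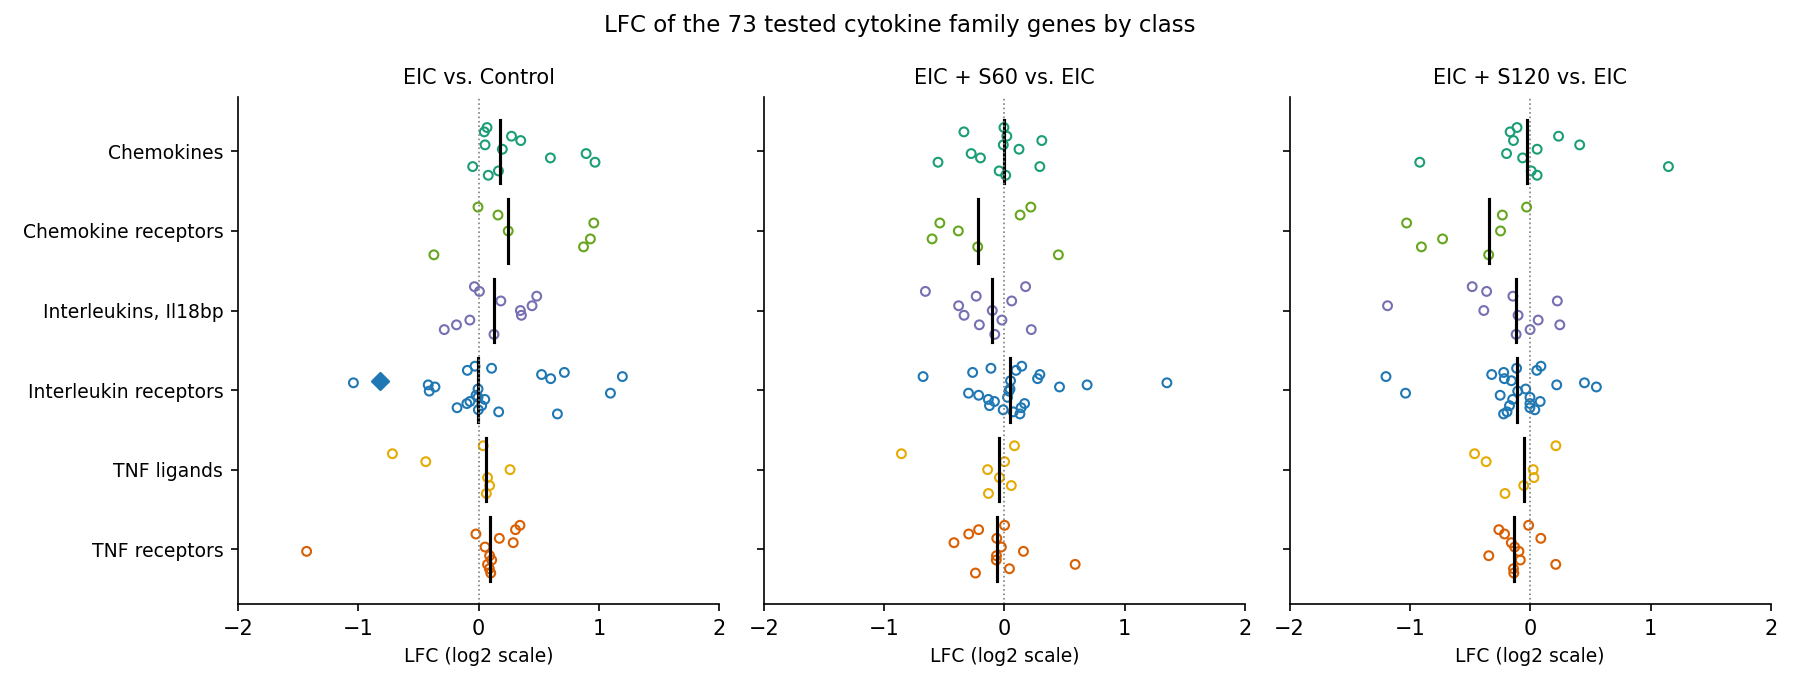
LFC (log2 scale) of the 73 tested genes by class in EIC vs. Control, EIC + S60 vs. EIC and EIC + S120 vs. EIC. Each symbol is a gene, black lines are class medians, and the filled diamond is Il22ra1, the only gene of these panels with an adjusted p under 0.05. Chemokine receptors have a median of 0.25 in EIC vs. Control and of -0.35 in EIC + S120 vs. EIC.

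The next smallest p-values after Il22ra1 and Cxcl12 belonged to receptors carried by leukocytes, none of which passed the test. Ccr2, the receptor through which Ccl2 recruits monocytes, had 2.46, 4.18, 4.78, 1.58 and 2.52 CPM in EIC mice, 2.36, 3.52, 2.56, 2.08 and 2.76 CPM in EIC + S60 mice, and 1.54, 1.73, 2.51, 0.820 and 1.67 CPM in EIC + S120 mice, against 2.37, 1.30, 0.871, 1.56 and 2.32 CPM in Control mice. The 4 groups overlapped, with the highest values in EIC 66 and 67. The LFC of Ccr2 was 0.87 ± 0.31 in EIC vs. Control (adjusted p = 0.135), -0.22 ± 0.31 in EIC + S60 vs. EIC (adjusted p = 0.945) and -0.90 ± 0.31 in EIC + S120 vs. EIC (adjusted p = 0.410). Without EIC 67 these were 0.67, -0.01 and -0.70.

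Cx3cr1, the fractalkine receptor of monocytes and resident kidney macrophages, had 3.62, 5.11, 12.8, 4.09 and 6.10 CPM in EIC mice, 6.29, 5.14, 2.62, 3.94 and 3.96 CPM in EIC + S60 mice, and 4.03, 3.57, 4.52, 1.39 and 2.02 CPM in EIC + S120 mice, against 3.64, 3.41, 2.61, 2.72 and 3.87 CPM in Control mice. EIC 67 stood far above the other EIC mice. The LFC was 0.96 ± 0.33 in EIC vs. Control (adjusted p = 0.134) and -1.03 ± 0.33 in EIC + S120 vs. EIC (adjusted p = 0.397), and without EIC 67 these were 0.53 (adjusted p = 0.387) and -0.60 (adjusted p = 0.860). Its exons overlap those of Gm33858 on the opposite strand, and the strand setting of the counting is not given in the sources used here.

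Il2rb, the signalling chain shared by the IL-2 and IL-15 receptors of T and NK cells, had the highest LFC of all members in EIC vs. Control, at 1.20 ± 0.36 (adjusted p = 0.123). It rested on few reads, with 0.338, 0.523, 1.36, 0.877 and 0.578 CPM in EIC mice, 0.328, 0.577, 0.349, 0.547 and 0.460 CPM in EIC + S60 mice and 0.296, 0.298, 0.611, 0.189 and 0.179 CPM in EIC + S120 mice, against 0.351, 0.301, 0.124, 0.204 and 0.619 CPM in Control mice. The groups overlapped, and the library counts ran between 2 and 24. In EIC + S120 vs. EIC the LFC was -1.20 ± 0.36 (adjusted p = 0.429). Without EIC 67 the LFCs of Il2rb were 0.85 in EIC vs. Control (adjusted p = 0.331) and -0.85 in EIC + S120 vs. EIC (adjusted p = 0.860).

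Il10ra, the ligand-binding chain for IL-10, had 1.45, 1.51, 2.22, 1.40 and 1.73 CPM in EIC mice, 2.10, 2.48, 1.80, 1.31 and 1.45 CPM in EIC + S60 mice and 2.13, 1.43, 1.59, 1.13 and 0.834 CPM in EIC + S120 mice, against 1.13, 1.05, 0.747, 1.09 and 1.24 CPM in Control mice. All EIC and EIC + S60 mice lay above all Control mice. The LFC was 0.66 ± 0.22 in EIC vs. Control (adjusted p = 0.164; 0.53 without EIC 67) and 0.78 ± 0.22 in EIC + S60 vs. Control (adjusted p = 0.131), so neither passed the test.

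Summed markers of macrophages and monocytes were also higher in EIC than in Control. The 12 markers, all listed, summed to between 52.5 and 183 CPM in EIC (median 79.3), 45.7 and 99.0 CPM in EIC + S60 mice (median 64.8) and 41.1 and 70.8 CPM in EIC + S120 mice (median 55.7), against 37.1 and 44.9 CPM in Control (median 39.5). The EIC and EIC + S60 ranges did not overlap with that of Control, and EIC 67 had the highest sum of all libraries. Lyz2, C1qa and Mpeg1 averaged 31.0, 20.1 and 17.6 CPM in EIC, against 8.33, 7.35 and 7.32 CPM in Control. Cd14, Mrc1 and Cd163 differed less, at 11.7, 3.07 and 0.285 CPM in EIC, against 10.2, 2.53 and 0.255 CPM in Control. Of the 10 T and NK cell markers, 6 were listed, and they summed to between 1.70 and 5.23 CPM in EIC, 1.57 and 3.12 CPM in EIC + S60 mice and 1.24 and 2.51 CPM in EIC + S120 mice, against 0.995 and 1.70 CPM in Control. The defining T cell markers Cd3e, Cd3d and Cd3g were not analysed here. Of the 10 neutrophil markers 5 were listed, with sums of at most 2.69 CPM in any library. The part of these cells in the receptor values was not tested.

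**Figure D4:**
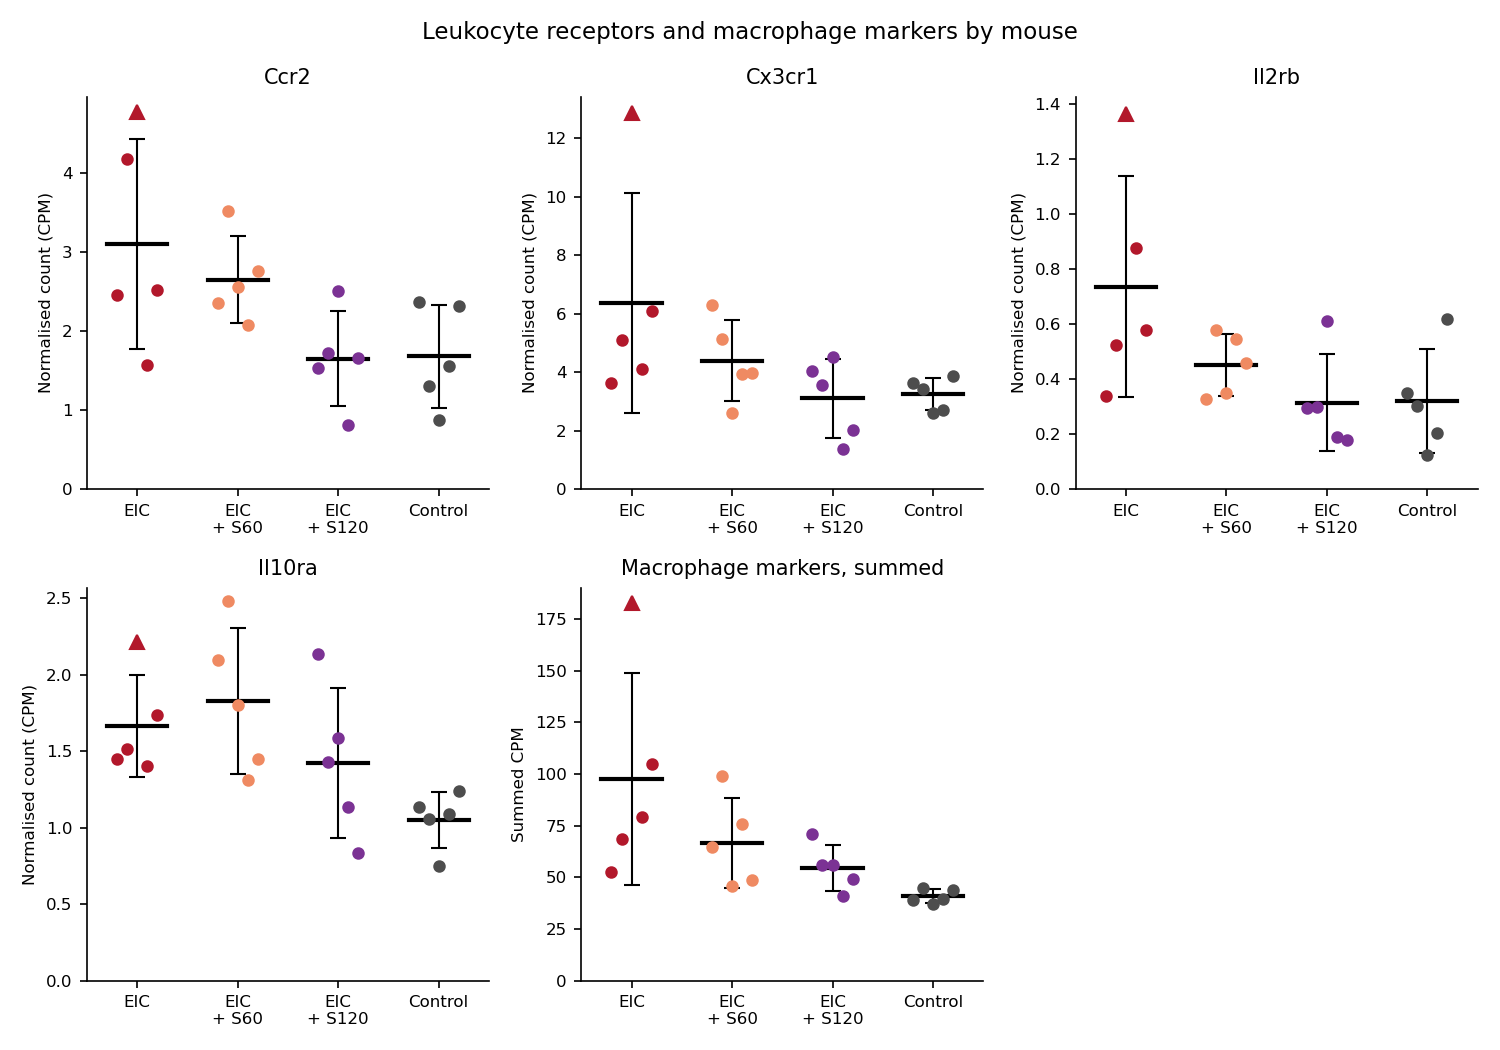
CPM (vertical axes from 0) of Ccr2, Cx3cr1, Il2rb and Il10ra, and the summed CPM of 12 macrophage and monocyte markers, in each mouse of EIC, EIC + S60, EIC + S120 and Control, with the mean (line) and SD (whiskers, n = 5). The triangle is EIC 67, which has the highest marker sum, 183 CPM, and the highest Ccr2, Cx3cr1 and Il2rb of all 20 mice.

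The comparisons of sparsentan with EIC address what the antagonist did to the kidneys of injected mice. In EIC + S60 vs. EIC none of the 73 members passed edgeR's test, and 0% of all genes did. DESeq2 and limma-voom also called 0 members. The 2 members with an unadjusted p under 0.05 (2.74%, against 6.05% of all genes) were Il1rl2, the receptor for IL-36, and Il20rb, a chain of the receptors for IL-20 and IL-24, both higher in EIC + S60. Il1rl2 had 2.16, 1.44, 1.22, 1.70 and 1.13 CPM in EIC + S60 mice, against 1.26, 0.407, 0.910, 1.05 and 1.05 CPM in EIC mice (LFC 0.69 ± 0.29, adjusted p = 0.786). The groups overlapped through EIC 65 and through EIC + S60 73 and 75. Il20rb, the lowest of the tested members per kb of exon, had counts between 1 and 17 and an LFC of 1.35 ± 0.45 (adjusted p = 0.792), with 0.468 ± 0.347 CPM in EIC + S60 mice and 0.174 ± 0.0998 CPM in EIC (SD, n = 5 each).

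The other members with the smallest p-values in EIC + S60 vs. EIC were also far from the threshold. Il4, a type 2 cytokine, had an LFC of -0.66 ± 0.32, Tnfrsf1b, the second TNF receptor, of -0.42 ± 0.23 (-0.14 without EIC 67), and Ccrl2, a chemerin-binding receptor that does not signal, of -0.38 ± 0.21. Il17ra, the common chain of the IL-17 receptors, was 0.17 ± 0.09 higher on the log2 scale, and Il6st was 0.14 ± 0.08 higher. Their adjusted p-values lay between 0.827 and 0.829. The LFC was above 0 in 33 of 73 members (45.2%), against 49.4% of all genes.

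In EIC + S120 vs. EIC again none of the 73 members passed edgeR's test, against 0.0572% of all genes (8 genes), and DESeq2 and limma-voom called 0 members. The 7 members with an unadjusted p under 0.05 (9.59%, against 8.45% of all genes) comprised Cxcl12, higher in EIC + S120 (1.37%, against 4.17% of all genes), and 6 members lower in EIC + S120 (8.22%, against 4.27%), among them Ccr2, Cx3cr1, Il10rb, Il1b and Il2rb. The LFC was above 0 in 21 of 73 members (28.8%), against 50.5% of all genes, and its median was -0.12, against 0.00 over all genes. All 7 tested chemokine receptors had an LFC below 0, with a median of -0.35 and a lowest value of -1.03 (Cx3cr1). Ccr2, Cx3cr1 and Il2rb averaged 1.65 ± 0.600, 3.11 ± 1.34 and 0.315 ± 0.175 CPM in EIC + S120 mice, against 3.10 ± 1.33, 6.35 ± 3.75 and 0.736 ± 0.401 CPM in EIC (SD, n = 5 each), and the ranges of both groups overlapped for each of them. The EIC mice that set these values also serve as the reference of EIC + S60, so the sparsentan comparisons are not independent of each other or of EIC vs. Control.

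Il1b, the inflammasome-processed cytokine, had 0.533, 0.298, 0.794, 0 and 0.179 CPM in EIC + S120 mice, against 0.628, 0.872, 1.48, 0.292 and 0.894 CPM in EIC mice, 0.635 ± 0.149 CPM in EIC + S60 mice and 0.614 ± 0.186 CPM in Control. EIC + S120 80 had no Il1b read, where a count of 0 allows up to 3 counts, or 0.189 CPM. The LFC in EIC + S120 vs. EIC was -1.19 ± 0.45 (unadjusted p = 0.0254, adjusted p = 0.514), and in EIC vs. Control 0.44 ± 0.45 (adjusted p = 0.675), which was 0.14 without EIC 67. Il10rb had 53.7, 58.0, 67.1, 55.7 and 60.6 CPM in EIC + S120 mice, against 54.2, 72.6, 74.2, 79.6 and 56.9 CPM in EIC mice. These ranges overlapped through EIC 65 and 69, and the LFC was -0.19 ± 0.09 (adjusted p = 0.585). Reads of Il10rb may be shared with the overlapping model Gm21970 on the same strand.

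Against Control, EIC + S60 had 1 member past the test (1.37%, Il2rg), against 1.29% of all genes, and EIC + S120 had 2 (2.74%, Cxcl12 and Il22ra1), against 5.55% of all genes. The LFC was above 0 in 51 of 73 members in EIC + S60 vs. Control (69.9%), against 6612 of all 13990 genes. In EIC + S120 vs. Control it was above 0 in 36 of 73 (49.3%), against 6553 of all 13990 genes. The groups did not overlap for Il10ra, Il27ra and Il2rg, higher in EIC + S60 than in Control (4.11%, against 2.08% of all genes), and for Il22ra1, which was lower (1.37%, against 1.74%). Between EIC + S120 and Control they did not overlap for Cxcl12, which was higher (1.37%, against 2.79% of all genes), and for Il22ra1, which was lower (1.37%, against 3.02%). In EIC + S120 vs. EIC + S60 none of the members passed edgeR's test (0.0643% of all genes did), DESeq2 and limma-voom called 0, and 6 members had an unadjusted p under 0.05 (8.22%, against 8.08% of all genes). Without Control 651, the library with the high podocyte and tubular injury sums, the calls in EIC + S120 vs. Control numbered 4. Il33 and Tnfrsf21 were then added to Cxcl12 and Il22ra1. Without EIC + S120 77 or without EIC 68 these calls numbered 3, with Il1r1 or Tnfsf15 added.

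Among the chemokines, 11 of 12 tested genes had an LFC above 0 in EIC vs. Control, against 47.6% of all genes. None passed edgeR's or limma-voom's test. An unadjusted p under 0.05 was reached by 2 (Ccl9 and Cxcl12), against 16.8% of all genes. DESeq2 called 1, Cxcl12, against 704 of all 13990 genes. Of the membrane-bound chemokines, Cxcl16 averaged 60.68 ± 6.95 CPM in EIC, 60.6 ± 8.58 CPM in EIC + S60 mice, 56.2 ± 6.95 CPM in EIC + S120 mice and 57.8 ± 3.89 CPM in Control, and Cx3cl1 averaged 53.9 ± 9.91, 58.8 ± 17.4, 56.1 ± 5.68 and 47.0 ± 6.41 CPM in the same order of groups (SD, n = 5 each). Their LFCs in EIC vs. Control were 0.07 ± 0.10 and 0.20 ± 0.15. The exons of Cxcl16 overlap Zmynd15 on the opposite strand, as those of Il1b, Il34 and Il6ra overlap Il1bos, Gm15894 and Gm15895, and Gm42809.

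The inflammatory chemokines were scarce. Ccl5, a chemoattractant for T cells and monocytes, had 1.93 CPM in EIC 67 and between 0.158 and 0.523 CPM in the other EIC mice, 0.438 ± 0.174 CPM in EIC + S60 mice, 0.336 ± 0.134 CPM in EIC + S120 mice, and 0.341 ± 0.161 CPM in Control. Its LFC in EIC vs. Control was 0.97 ± 0.44 (adjusted p = 0.369), and without EIC 67 it was 0.00 (adjusted p = 0.997). Cxcl9, an interferon-gamma-induced ligand of Cxcr3, was not tested, since only EIC 67 had more than 10 counts of it, 31, or 1.76 CPM. The other EIC mice had between 0.0585 and 0.315 CPM of Cxcl9 and Control mice between 0 and 0.311 CPM. The high values of both genes were thus those of a single mouse.

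Cxcl10, the related interferon-induced chemokine, averaged 1.33 ± 0.452 CPM in EIC, 1.65 ± 0.308 CPM in EIC + S60 mice, 1.21 ± 0.325 CPM in EIC + S120 mice and 1.07 ± 0.280 CPM in Control, with an LFC of 0.35 ± 0.24 in EIC vs. Control (adjusted p = 0.530; 0.20 without EIC 67) and exons that overlap Art3 on the opposite strand. Cxcl1, a neutrophil chemoattractant, had between 1 and 12 counts per library and an LFC of 0.05 ± 0.50 in EIC vs. Control. Ccl2, the main ligand of Ccr2, was not tested, with between 0 and 14 counts per library and means of 0.187 ± 0.0897 CPM in EIC and 0.371 ± 0.222 CPM in Control. Ccl28, a chemokine of mucosal epithelium, differed widely between mice: it had 18.4, 3.51, 10.3, 18.7 and 42.6 CPM in EIC + S120 mice, against 18.2, 4.36, 3.98, 6.08 and 9.30 CPM in EIC mice (LFC 1.15 ± 0.52, adjusted p = 0.593). The ranges overlapped, and the highest value was that of EIC + S120 81.

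**Figure D5:**
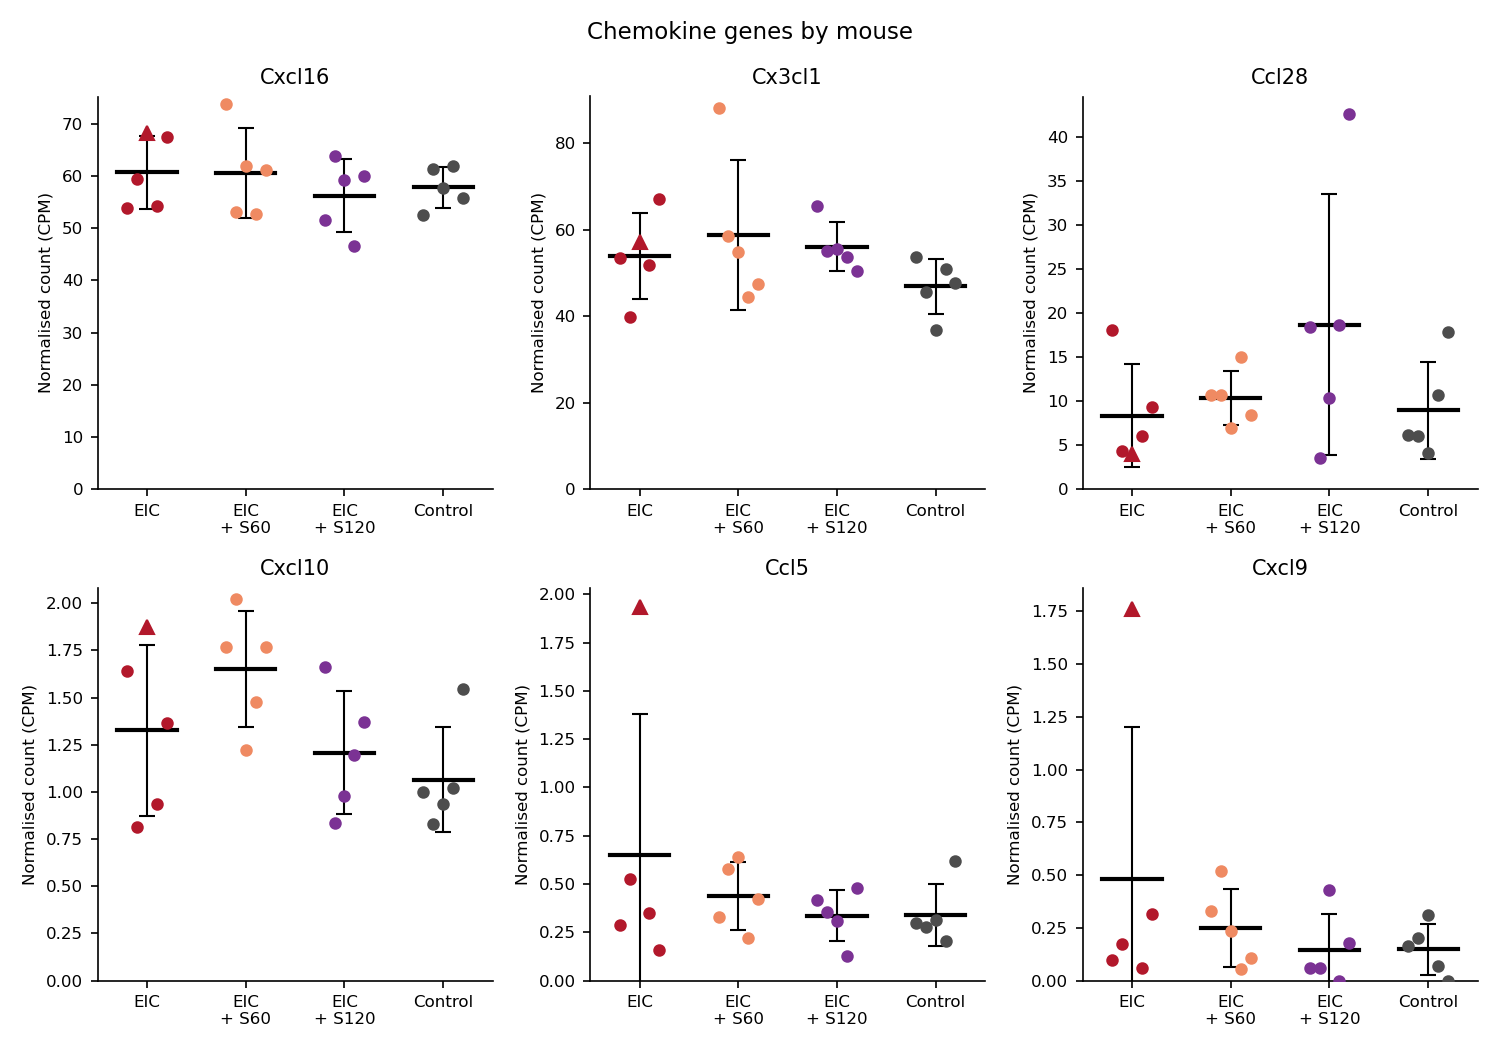
CPM (vertical axes from 0) of Cxcl16, Cx3cl1, Ccl28, Cxcl10, Ccl5 and Cxcl9 in each mouse of EIC, EIC + S60, EIC + S120 and Control, with the mean (line) and SD (whiskers, n = 5, drawn down to 0 where they would pass it). The triangle is EIC 67, which alone carries the high values of Ccl5, 1.93 CPM, and Cxcl9, 1.76 CPM. Cxcl9 was not tested.

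The interleukin genes with most reads showed small differences. Il34, the second ligand of the CSF-1 receptor on macrophages, had 7.19, 3.14, 8.81, 8.01 and 7.99 CPM in EIC mice, against 4.13, 5.04, 5.16, 6.60 and 4.33 CPM in Control mice, with 5.98 ± 2.05 CPM in EIC + S60 mice and 6.37 ± 1.08 CPM in EIC + S120. Of the EIC mice 4 lay above all Control mice and EIC 66 lay below them, and the LFC was 0.48 ± 0.25 (adjusted p = 0.310). Il15, which acts through Il2rb and Il2rg, averaged 9.71 ± 1.65 CPM in EIC, 9.17 ± 0.620 CPM in EIC + S60 mice, 8.95 ± 1.54 CPM in EIC + S120 mice and 8.88 ± 0.892 CPM in Control (LFC 0.13 ± 0.13 in EIC vs. Control).

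Il33, an alarmin of the IL-1 family, had an LFC of 0.19 ± 0.23 in EIC vs. Control and of 0.41 ± 0.23 in EIC + S120 vs. Control (adjusted p = 0.343), with the highest Control value, 13.7 CPM, in mouse 651 and between 4.54 and 8.64 CPM in the other Control mice. Il18, another inflammasome-processed cytokine, averaged 1.59 ± 0.284 CPM in EIC and 1.23 ± 0.333 CPM in Control (LFC 0.36 ± 0.22, adjusted p = 0.484). Il6, Il10 and Il1rn were not analysed here. Il6ra, the ligand-binding chain for IL-6, averaged 4.51 ± 1.10 CPM in EIC and 4.16 ± 0.597 CPM in Control (LFC 0.11 ± 0.14).

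Il1r1, the signalling receptor for IL-1, was also lower in every EIC mouse than in every Control mouse. It had 5.89, 4.24, 5.86, 5.44 and 5.15 CPM in EIC mice, 8.13, 5.77, 4.19, 5.09 and 4.28 CPM in EIC + S60 mice and 7.17, 5.24, 4.28, 4.48 and 3.57 CPM in EIC + S120 mice, against 6.74, 6.68, 9.58, 6.26 and 6.11 CPM in Control mice. The highest Control value was that of mouse 653, the library with the adipocyte markers. The LFC was -0.41 ± 0.19 in EIC vs. Control (adjusted p = 0.280) and -0.51 ± 0.19 in EIC + S120 vs. Control (adjusted p = 0.129), so neither passed the test. Il13ra1 and Il6st, among the most abundant receptor chains, had LFCs of -0.18 ± 0.10 and -0.03 ± 0.08 in EIC vs. Control.

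In the TNF superfamily none of the 7 ligands and 12 receptors tested passed edgeR's test in any of the 6 comparisons, and DESeq2 and limma-voom also called 0. Tnfsf15, in EIC + S120 vs. Control, was the 1 with an unadjusted p under 0.05. Tnfrsf1a averaged 67.1 ± 6.05 CPM in EIC, 65.9 ± 5.53 CPM in EIC + S60 mice, 61.3 ± 4.49 CPM in EIC + S120 mice and 64.6 ± 3.96 CPM in Control, and its LFC was 0.05 ± 0.07 in EIC vs. Control and -0.13 ± 0.07 in EIC + S120 vs. EIC. Tnfrsf1b had 9.04 CPM in EIC 67 and between 3.89 and 4.74 CPM in the other EIC mice, against 4.30 ± 1.14 CPM in Control. Its LFC of 0.29 ± 0.23 in EIC vs. Control was 0.01 without EIC 67. Tnfrsf21 averaged 316 ± 34.8 CPM in EIC and 279.8 ± 83.8 CPM in Control (LFC 0.17 ± 0.15).

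Of the ligands, Tnfsf10, which encodes TRAIL, averaged 32.5 ± 8.62 CPM in EIC, 29.6 ± 6.40 CPM in EIC + S60 mice, 28.1 ± 10.1 CPM in EIC + S120 mice and 31.3 ± 10.5 CPM in Control, and Tnfsf13b, the B cell survival factor BAFF, averaged 1.36 ± 0.608, 1.24 ± 0.436, 1.37 ± 0.246 and 1.11 ± 0.164 CPM in the same order of groups (SD, n = 5 each). Their LFCs in EIC vs. Control were 0.07 ± 0.23 and 0.26 ± 0.26. The counts of Tnfsf12, Tnfsf13 and their readthrough Tnfsfm13 overlap each other and are uncertain as single genes.

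Downstream genes were described from 3 lists. Of 25 JAK-STAT and SOCS genes tested, 1 was higher and 1 lower in EIC vs. Control (3 called by DESeq2, 1 by limma-voom). At an unadjusted p under 0.05, 2 of the 25 were higher and 2 lower (8% each), against 7.66% and 9.11% of all genes. Of all 13990 genes, 2.97% passed edgeR's test in this comparison, while DESeq2 called 704 and limma-voom 405. Ptpn11, a tyrosine phosphatase downstream of many receptors, was lower in EIC by a small amount, at 116 ± 5.63 CPM against 130.1 ± 4.49 CPM in Control (LFC -0.17 ± 0.04, adjusted p = 0.0467), and this call was kept in 1 of 20 fits that left out 1 library (EIC + S120 77).

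None of the 31 tested NF-kappaB, TNF and IL-1 receptor adaptor genes passed edgeR's test in EIC vs. Control, with 3 at an unadjusted p under 0.05, all lower in EIC (9.68%, close to the 9.11% of all genes that were lower), and a median LFC of -0.02, and DESeq2 and limma-voom also called 0. Of 41 tested cytokine genes whose symbols fall outside the naming rule, 1 passed (4 by DESeq2, 1 by limma-voom). Of all 13990 genes, 2.97% passed (704 genes by DESeq2, 405 by limma-voom). At an unadjusted p under 0.05 in EIC vs. Control, 8 of these 41 were higher (19.5%, against 7.66% of all genes) and 3 were lower (7.32%, against 9.11%). Ebi3, a subunit of IL-27 and IL-35, had 0.290, 0.291, 1.02, 0.643 and 0.631 CPM in EIC mice, against 0.0539, 0.201, 0.187, 0.272 and 0.155 CPM in Control mice (LFC 1.78 ± 0.38, adjusted p = 0.0473). The groups did not overlap, and the call was kept in 4 of 20 fits that left out 1 library (EIC 65 or 66, EIC + S120 77 or 81), with adjusted p up to 0.138 (without EIC 67). No gene of the 3 lists passed edgeR's or limma-voom's test in EIC + S60 vs. EIC or in EIC + S120 vs. EIC. There, 6 and 11 of the 97 genes had an unadjusted p under 0.05 (6.19% and 11.3%, against 6.05% and 8.45% of all genes). DESeq2 called 1 in each, against 5 and 61 of all 13990 genes. Ngfr, the low-affinity neurotrophin receptor, named here after its values were seen, was lower in EIC + S120 (0.341 ± 0.143 CPM) than in Control (1.27 ± 0.294 CPM), with an LFC of -1.85 ± 0.26 (adjusted p = 0.000854).

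EIC 67 had the highest value of the EIC mice in 27 of 73 tested members (37.0%), against 20.3% of all genes. EIC + S120 77 had the highest value of its group in 29 members (39.7%), against 28.2% of all genes. In EIC + S60, mice 71 and 72 had the highest value in 21 and 23 members (28.8% and 31.5%), against 17.3% and 21.4% of all genes. The 31 members that were not tested reached at most 31 counts in any library, and 18 of them stayed under 10 counts in every library. They include Ccl2, Ccl3, Ccl4, Ccl7, Cxcl9, Cxcl11, Cxcl13, Ccr6, Ccr7, Cxcr2, Cxcr6, Il2ra and Il7r. Just outside the filter, with at least 10 counts in 4 libraries, were Tnfrsf13b (up to 15 counts), Cxcl13 (up to 25) and Il1f5 (up to 20), and just inside it, in 5 libraries, were Tnfsf9 (up to 37 counts) and Il20rb (up to 17).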

How the data were processed

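RNA of 20 kidneys was selected by poly(A). Per the submitters' notes, the authors used Trimmomatic 0.36 for trimming, STAR 2.5.2b for alignment to GRCm38, and featureCounts from Subread 1.5.2 to make the deposited table of raw counts. Whether counting used strand, and which annotation it used, is not given in the sources used here. All 15780 listed genes have a count in EIC 65, while each other library has between 234 and 654 genes at 0. The list thus holds no gene that was at 0 in EIC 65, so which genes could be members depends on that library.

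The fit kept the 13990 genes that reached 10 counts in 5 or more libraries. Libraries were scaled by TMM, and edgeR 4.0.16 (R 4.3.3) fitted 1 coefficient per group by robust quasi-likelihood over all 20 libraries. Tests were two-sided, adjusted by Benjamini-Hochberg over the 13990 genes, with a threshold of 0.05. LFCs and p-values came from edgeR, while SEs came from a separate fit on log2 CPM by limma 3.58.1 (limma-trend, prior count 2). Alternatives were DESeq2 1.42.0, limma-voom, RLE scaling, edgeR without the robust option, other filters, only the libraries compared, and fits that left out libraries. The fit was tested on simulated data with known changes.

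CPM denotes counts scaled to library size after TMM, and SDs are over the 5 mice of a group. Groups came from the sample labels. No label says that mice were housed or processed in batches, and p-values set a difference between groups against the spread between these mice. The authors state that cages were not controlled for, so effects of cage cannot be told apart from those of group. Coordinates and exon lengths are those of GENCODE vM21 on GRCm38, to which all 104 members were matched, and promoter windows those of RefSeq on GRCm38.p6. Members and lists were chosen with earlier results of these data known. Named were members past the test in any comparison, the 8 with the smallest p in each of EIC vs. Control, EIC + S60 vs. EIC and EIC + S120 vs. EIC, the 6 with the highest level per kb, a set panel of inflammatory genes, and genes of the 3 pathway lists past the test in those 3 comparisons. Some genes that this rule names are not reported here.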

Additional observations from a re-analysis of the deposited data

Results flagged for a closer look

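In 10 of 140 pairs of a named gene and a group of 5 mice, the highest or lowest mouse stood apart from the others by Dixon's 95% criterion, which chance meets in about 1 of 20 groups. EIC 67 was the highest EIC mouse for Cx3cr1 (12.8 CPM, next 6.10 CPM), Tnfrsf1b (9.04 CPM, next 4.74 CPM) and Ccl5 (1.93 CPM, next 0.523 CPM). EIC 65 was the lowest EIC mouse for Ccrl2 (3.28 CPM, next 4.15 CPM) and EIC 66 for Il34 (3.14 CPM, next 7.19 CPM). In EIC + S120, mouse 77 was the highest for Tnfsf10 (46.0 CPM, next 25.2 CPM) and mouse 79 for Il2rb (0.611 CPM, next 0.298 CPM). Among Control mice, 655 was the highest for Cxcl10 (1.55 CPM, next 1.02 CPM) and Ccl5 (0.619 CPM, next 0.311 CPM), and 653 for Il1r1 (9.58 CPM, next 6.74 CPM).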

How the results depend on the processing

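Across 28 alternatives none of the 40 reported LFCs that were followed changed direction. Of their values, 1076 stayed on the same side of the threshold, 27 lost a call and 8 gained one. The members called in EIC vs. Control numbered 1, and 2 by DESeq2 (Il22ra1 and Cxcl12), 0 with only the libraries compared, 0 without both deeper Control libraries (651 and 652, an alternative chosen after seeing the data), and between 0 and 1 when 1 library was left out. In EIC + S60 vs. Control they numbered 1, and 3 by DESeq2, 0 by limma-voom, 0 with only the libraries compared, 0 without both deeper Control libraries, and between 0 and 2 when 1 library was left out. In EIC + S120 vs. Control they numbered 2, and 4 without both deeper Control libraries, and between 2 and 4 when 1 library was left out. In the test across the 4 groups they numbered 2, and 1 without both deeper Control libraries, and between 1 and 3 when 1 library was left out. The causes were not tested. In the 3 comparisons without Control, 0 members were called under every alternative run. Over all genes, the 416 calls in EIC vs. Control were 704 by DESeq2, 146 with only the libraries compared and 124 without both deeper Control libraries, and the 180 calls in EIC + S60 vs. Control were 349 by DESeq2. In EIC + S120 vs. EIC the 8 calls were 61 by DESeq2. No paired analysis was possible because the mouse numbers differ between all groups. Members near the filter, such as Il20rb and Tnfsf9, rest on few reads per library, which limits the precision of their LFCs.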
